A study of Mus musculus with 7 samples.

Results

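Complement components and receptors were read on 7 short-oligonucleotide arrays of mouse fetal liver cells. The 8 genes were chosen by symbol: the C1q chain genes C1qa, C1qb and C1qc, the alternative pathway genes C3, Cfb and Cfp, and the receptor genes C3ar1 and C5ar1. Of these, 7 had at least 1 probe set paired with that symbol alone, 10 probe sets in all, out of 12393 genes on the array. C3 had none in the annotation used and was not analysed here. The genes were chosen with results of the Sca1+ against Sca1- comparison already known, in which Cfb stood among the largest differences, so their differences in that comparison are given as a description without a p-value.

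The arrays cover fetal liver feeder cells (n = 1), unsorted liver endothelial progenitors (n = 1), progenitors positive for the surface antigen Sca1 (Sca1+, n = 2) and progenitors negative for it (Sca1-, n = 3). The labels give the tissue as fetal liver for every sample and name no strain, age, treatment or number of animals, so the spread between replicates may be partly technical. The feeder array lies in a table deposited under another platform than the other 6. Among the sorted arrays, Sca1+ replicate 2 and Sca1- replicates 2 and 3 carry a sample number in their titles and a named scanning software. They are called the later set here, and Sca1+ replicate 1 and Sca1- replicate 1, which carry neither, the first set. This split was inferred from the labels. The feeder and unsorted arrays carry neither as well, but the term first set is used here for sorted arrays only.

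Signals are on a linear scale with each array brought to a trimmed mean of 500, and differences are on the log2 scale after values under 64 were raised to 64. Macrophage transcripts were abundant on all arrays: of 9 macrophage and Kupffer cell genes measured, 7 or 8 exceeded a signal of 100 on each array. Their summed signal was 46500 in feeder and 49600 in unsorted cells, with 118000 and 68800 for Sca1+ and 123000, 71000 and 63400 for Sca1-. On Sca1- replicate 1 most of the sum came from Lyz2, at 79800. The median log2 signal of the 9 genes was lowest on that array, at 10.82, and highest on Sca1+ replicate 1, at 13.54. Of 10 endothelial genes 2 to 7 exceeded 100. Pecam1 did not exceed 206 on any array, while Eng, at 184 to 749, and Kdr, at 141 to 432, exceeded 100 on every array. Fibroblast genes were at 1910 and 3100 in summed signal on the 2 first-set sorted arrays, against 29000 to 78300 on the other 5. The 3' to 5' signal ratio of the Actb control probe sets, a measure of truncated transcripts, reached 6.83 in Sca1+ replicate 1 and 13.5 in Sca1- replicate 1, against 1.01 to 2.37 on the other 5 arrays.

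Complement is a cascade of plasma proteins that tags particles for uptake and recruits leukocytes. In the classical pathway C1q, built from the products of C1qa, C1qb and C1qc, binds antibody or other ligands and activates the proteases C1r and C1s, which cleave C4 and C2. In the alternative pathway C3b binds factor B, the product of Cfb, to form a C3-cleaving enzyme that properdin, the product of Cfp, stabilises. Cleavage releases the peptides C3a and C5a, whose receptors are encoded by C3ar1 and C5ar1 and are found chiefly on myeloid cells. Tissue macrophages are a known source of C1q, while hepatocytes make most of the other plasma components.

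The 3 C1q chain genes lie side by side on chromosome 4 (GRCm38.p6, RefSeq), C1qb at chr4:136880126-136886200, C1qc at chr4:136889801-136892936 and C1qa at chr4:136895916-136898844. They span 18.7 kb with 0 other annotated genes between them. Cfb lies at chr17:34856374-34862514, 88 bases from C2. C3ar1 lies at chr6:122847140-122856157, C5ar1 at chr7:16246743-16259540 and Cfp at chrX:20925454-20931555.

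The regions around the annotated starts of C1qb and C1qc, neighbours that encode chains of 1 protein, and of C5ar1, the receptor gene with the larger gene-level difference between the sets, are shown to let their sequences be set beside the signals. Each line runs from 250 bases before to 50 bases after the start, 5' to 3' on the minus strand (RefSeq, GRCm38.p6), at chr4:136886151-136886450 for C1qb, chr4:136892865-136893164 for C1qc and chr7:16259289-16259588 for C5ar1. Capitals mark matches on either strand to GAGGAA, the core of the purine-rich box read by the myeloid factor PU.1.
C1qb: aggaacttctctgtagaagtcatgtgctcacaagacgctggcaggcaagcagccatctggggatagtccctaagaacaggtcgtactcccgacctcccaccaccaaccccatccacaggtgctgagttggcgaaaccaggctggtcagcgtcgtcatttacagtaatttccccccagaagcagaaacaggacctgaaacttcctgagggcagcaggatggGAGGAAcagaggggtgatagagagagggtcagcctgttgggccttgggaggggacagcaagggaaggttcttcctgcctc
C1qc: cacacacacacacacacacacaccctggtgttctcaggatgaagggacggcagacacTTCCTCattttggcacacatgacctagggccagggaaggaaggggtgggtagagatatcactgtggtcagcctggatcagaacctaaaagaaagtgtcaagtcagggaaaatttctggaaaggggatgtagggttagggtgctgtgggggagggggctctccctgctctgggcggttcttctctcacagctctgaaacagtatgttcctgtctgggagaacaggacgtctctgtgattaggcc
C5ar1: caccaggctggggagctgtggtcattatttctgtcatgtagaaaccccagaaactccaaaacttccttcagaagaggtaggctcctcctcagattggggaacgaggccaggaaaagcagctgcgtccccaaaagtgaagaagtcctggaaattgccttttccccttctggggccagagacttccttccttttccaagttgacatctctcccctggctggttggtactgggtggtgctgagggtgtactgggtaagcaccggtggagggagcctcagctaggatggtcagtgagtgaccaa
C1qb held 1 match on the strand shown, at bases -30 to -25 from the start, and C1qc held 1 on the opposite strand, at bases -193 to -188. The C5ar1 window held 0 matches. Of the members' windows not shown, Cfp held 2 matches, on the opposite strand, and C3ar1 and C3 held 0. Of 32851 promoter windows of this length, 28.3% held the motif, so a match is common. The windows of C1qb, C1qc and C5ar1 held 0 matches to TGCTGAC, a part of the element read by Maf factors (4.67% of all windows). Since GAGGAA alone was found, no matches of different motifs overlapped.

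C1qa, C1qb and C1qc were well above background on all 7 arrays. C1qa, which encodes the A chain, read 6980 in feeder and 7540 in unsorted cells, with 2310 and 8440 for Sca1+ and 743, 5830 and 5640 for Sca1-. The 2 first-set sorted arrays were the lowest of the 7, and the fractions overlapped. C1qc, which encodes the C chain, read 7890 in feeder and 8860 in unsorted cells, with 6300 and 11800 for Sca1+ and 2680, 8820 and 7780 for Sca1-. Again the first-set sorted arrays were lowest, though C1qc differed less between arrays than C1qa did. In both fractions the spread between replicates was wide, with a log2 mean of 12.11 ± 1.32 (SD, n = 2) in Sca1+ and 11.50 ± 1.70 (SD, n = 3) in Sca1- for C1qa, and 13.07 ± 0.64 and 12.47 ± 0.94 in the same fractions for C1qc. The order of the group levels was unsorted, feeder, Sca1+, Sca1- for C1qa and unsorted with Sca1+, then feeder, then Sca1- for C1qc. No neighbours in these orders differed by more than the spread within Sca1+ or Sca1-.

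C1qb, which encodes the B chain, gave different patterns on its 3 probe sets. Probe set 1417063_at read 6530 in feeder and 6490 in unsorted cells, with 1410 and 3460 for Sca1+ and 606, 1890 and 1880 for Sca1-, so that the feeder and unsorted arrays were highest. Probe set 1437726_x_at read 3110 in feeder and 3160 in unsorted cells, with 5260 and 8830 for Sca1+ and 5060, 6570 and 6060 for Sca1-, so that the same 2 arrays were lowest. Probe set 1434366_x_at read 1600 in feeder and 1770 in unsorted cells, with 2220 and 4380 for Sca1+ and 2590, 3100 and 3590 for Sca1-, with the feeder and unsorted arrays again lowest. The suffix x marks probe sets that may bind other transcripts too. The log2 range over the 3 probe sets on 1 array was widest on Sca1- replicate 1, at 3.06, and narrowest on Sca1+ replicate 2, at 1.35. The gene-level values below use 1437726_x_at, which had the highest mean signal. Any statement on the level of C1qb in the sorted cells against the unsorted cells or the feeder depends on this choice.

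**Figure D1:**
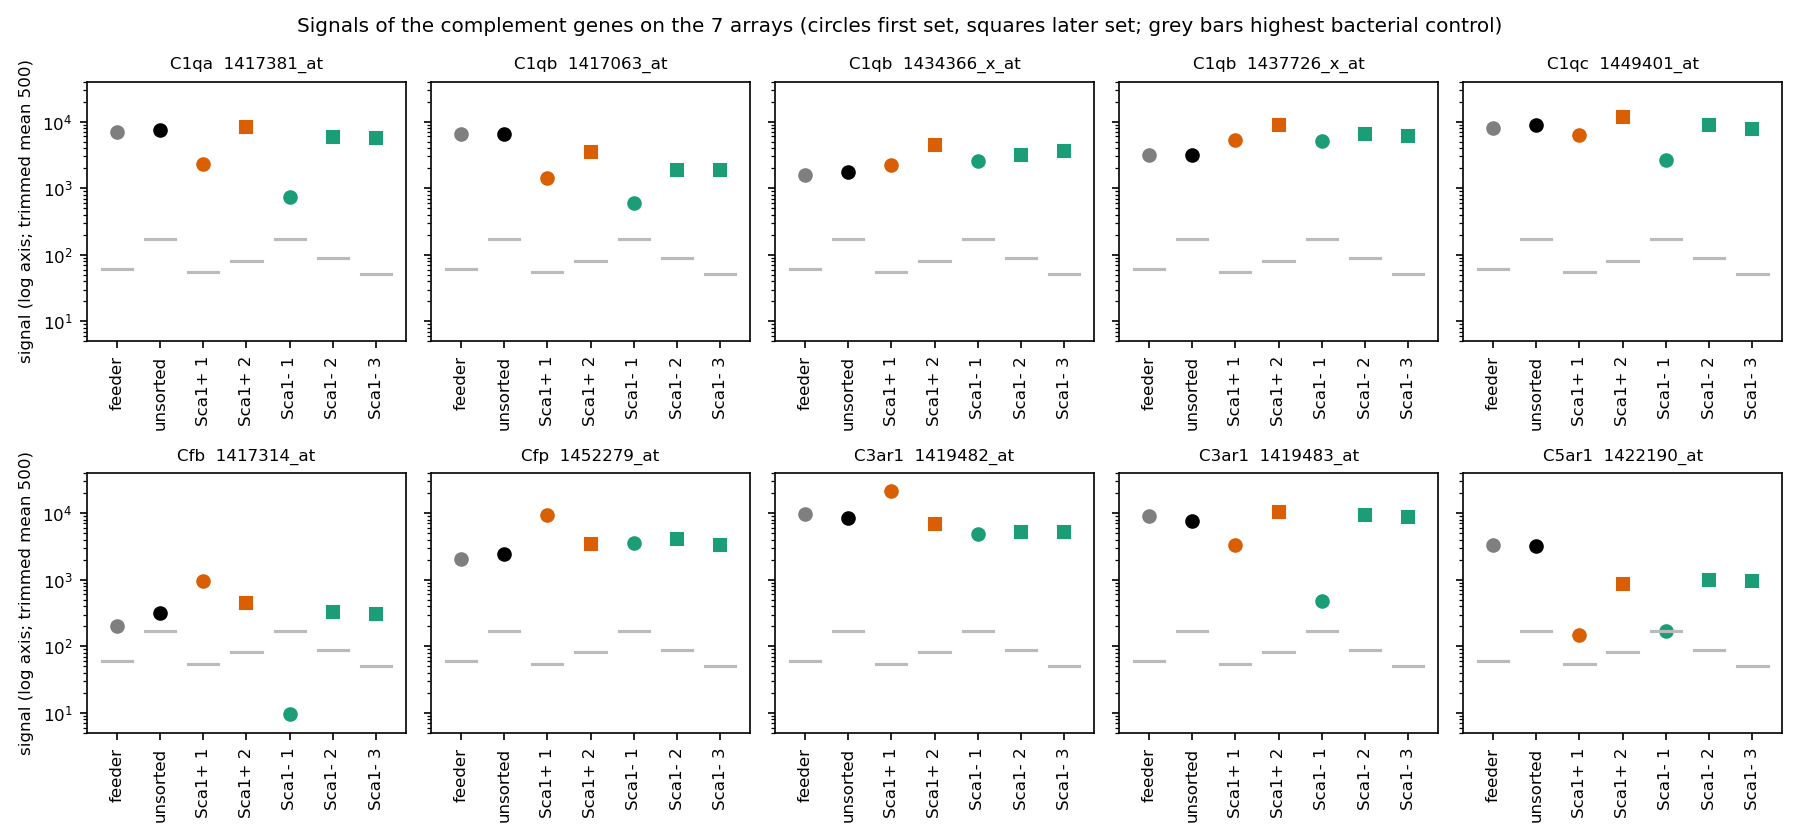
Signal of each probe set of the complement genes (log axis, arrays scaled to a trimmed mean of 500) on the feeder, unsorted, Sca1+ and Sca1- arrays. Circles stand for the first-set sorted arrays and the feeder and unsorted arrays, and squares for later-set arrays. Grey bars mark the highest bacterial control probe set of each array. C1qa, C1qc, C5ar1, probe set 1417063_at of C1qb and probe set 1419483_at of C3ar1 were lowest on the 2 first-set sorted arrays. Cfb lay below the control bar on Sca1- replicate 1, at 9.59.

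The alternative pathway genes were highest on Sca1+ replicate 1. Cfb, which encodes factor B, read 200 in feeder and 318 in unsorted cells, with 968 and 443 for Sca1+ and 9.59, 328 and 309 for Sca1-. Each Sca1+ array exceeded each Sca1- array, but Sca1- replicate 1 lay below the highest bacterial control on that array, at 170, and the other 2 Sca1- arrays lay between that level and the lower Sca1+ array. Cfp, which encodes properdin, read 2050 in feeder and 2470 in unsorted cells, with 9260 and 3390 for Sca1+ and 3520, 4100 and 3300 for Sca1-. Only Sca1+ replicate 1 stood apart for Cfp, and the other Sca1+ array lay within the range of the Sca1- arrays. The log2 mean of Cfp was 12.45 ± 1.02 (SD, n = 2) in Sca1+ and 11.82 ± 0.16 (SD, n = 3) in Sca1-. Its groups ran Sca1+, Sca1-, unsorted, feeder. The unsorted array, at 11.27, lay below the Sca1- mean by more than the Sca1- spread. The feeder array had the lowest value of all. Cfb ran Sca1+ (9.35 ± 0.80), unsorted (8.31), feeder (7.64), Sca1- (7.54 ± 1.34), and the last 3 differed by less than the Sca1- spread.

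C3ar1, which encodes the receptor for C3a, had 2 probe sets that agreed on the feeder and unsorted arrays and parted on the sorted ones. Probe set 1419482_at read 9550 in feeder and 8460 in unsorted cells, with 21700 and 6930 for Sca1+ and 4930, 5280 and 5130 for Sca1-. Here Sca1+ replicate 1 was highest of all and both Sca1+ arrays exceeded every Sca1- array. Probe set 1419483_at read 9030 in feeder and 7560 in unsorted cells, with 3280 and 10300 for Sca1+ and 479, 9360 and 8830 for Sca1-. Here the first-set sorted arrays were lowest and the fractions overlapped. The log2 range between the 2 probe sets was 0.08 in feeder and 0.16 in unsorted cells, 0.57 to 0.83 on the later-set arrays, 2.73 on Sca1+ replicate 1 and 3.36 on Sca1- replicate 1. The arrays with the widest ranges were the 2 with the highest Actb 3' to 5' ratios, and the part of that ratio in these signals was not tested. On 1419482_at, the probe set used at gene level, the groups ran Sca1+ (13.58 ± 1.17), feeder (13.22), unsorted (13.05) and Sca1- (12.32 ± 0.05), of which the first 3 differed by less than the Sca1+ spread.

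C5ar1, which encodes the receptor for C5a, had the widest range between groups. Its signals were 3340 in feeder and 3190 in unsorted cells, with 149 and 864 for Sca1+ and 169, 984 and 970 for Sca1-. The feeder and unsorted arrays exceeded all 5 sorted arrays, the later-set arrays came next and the first-set arrays were lowest, with Sca1- replicate 1 just under the highest bacterial control of 170 there. The fractions overlapped, with log2 means of 8.49 ± 1.80 (SD, n = 2) in Sca1+ and 9.09 ± 1.46 (SD, n = 3) in Sca1-, while the feeder and unsorted arrays differed by 0.06. In bulk RNA, fewer cells of a type and less RNA per cell cannot be told apart, here and for every gene below.

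Between the sorted fractions, the question is which transcripts differ with Sca1. The C1q chains, Cfb, Cfp and C3ar1 had differences above 0 and C5ar1 one below 0. The log2 difference was 1.81 ± 0.80 (SE) for Cfb, 1.26 ± 0.53 for C3ar1, 0.63 ± 0.50 for Cfp, 0.61 ± 1.01 for C1qa, 0.60 ± 0.62 for C1qc, 0.22 ± 0.40 for C1qb and -0.60 ± 1.01 for C5ar1. The median over the 7 genes was 0.61, beside 0.07 over all 8591 genes tested. The Sca1+ values exceeded all Sca1- values for Cfb and C3ar1, where 12.1% of all genes did so, and lay under all of them for 0 of the 7, where 8.56% did so. The same 2 genes were past 2-fold higher and 0 of the 7 past 2-fold lower, beside 2.86% and 4.71% of all genes. For C3ar1 the separation and the fold held only on the probe set used at gene level. On its other probe set, 1419483_at, the fractions overlapped and the difference was 0.77 ± 1.31 (SE). For C1qb the difference was 0.78 ± 0.66 on 1417063_at and 0.02 ± 0.44 on 1434366_x_at. With limma, 0 of the 8591 genes (0%) passed an adjusted p of 0.05 in this comparison, and 292 had an unadjusted p under 0.05.

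For Cfb, C3ar1, C1qa, C1qc and Cfp the difference between fractions was larger in the first set than in the later set. For Cfb the difference was 0.47 within the later set and 3.92 within the first, where the Sca1- array was at the floor. Against the highest bacterial control of Sca1- replicate 1 in place of the floor, the first-set difference of Cfb was 2.51. In the later and first set it was 0.41 and 2.14 for C3ar1, 0.56 and 1.64 for C1qa, 0.51 and 1.23 for C1qc, and -0.12 and 1.39 for Cfp. C5ar1 had -0.18 and -0.19, and C1qb 0.49 and 0.06 on the probe set used at gene level. On its other probe sets C1qb had 0.88 and 1.22 (1417063_at) and 0.39 and -0.22 (1434366_x_at). A limma fit of the change in the fraction difference between the sets, with 1 residual degree of freedom, called 0 of 8591 genes, with 2683 at an unadjusted p under 0.05. With the deposit set as a term the fraction difference was 1.95 ± 0.74 (SE) for Cfb and 1.15 ± 0.40 for C3ar1. The C3ar1 value is from the probe set used at gene level. The fit with that term called 0% of genes higher and 0.989% lower in Sca1+. Without Sca1- replicate 1 the median over the 7 genes was 0.11, and the difference of Cfb was 1.04. Without Sca1+ replicate 1 the difference of C3ar1 was 0.44 and that of Cfp was -0.10. Without Sca1+ replicate 2 the difference of C5ar1 was -1.87, and without Sca1+ replicate 1 it was 0.67.

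**Figure D2:**
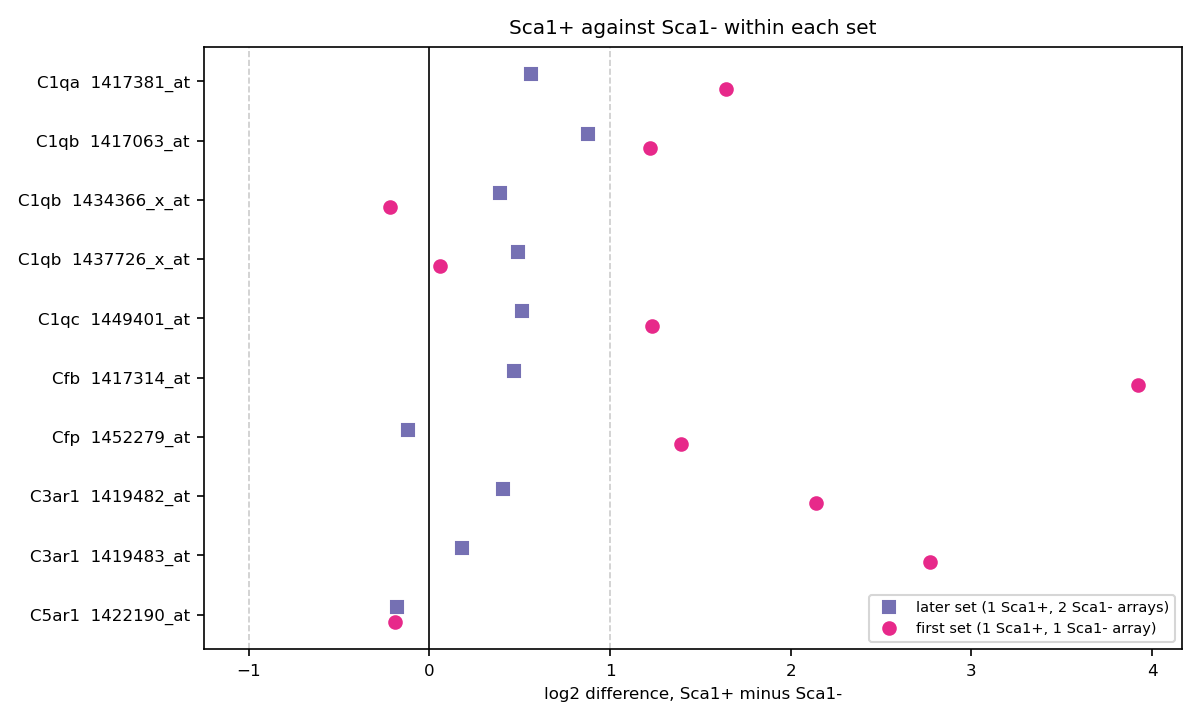
Log2 difference of Sca1+ minus Sca1- for each probe set within the later set (squares) and the first set (circles), with dashed lines at a 2-fold difference. Cfb had 0.47 in the later set and 3.92 in the first, and no probe set exceeded 2-fold in the later set.

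Monocyte and granulocyte genes also differed between these arrays. The summed signal of 8 such genes was 121000 and 9310 for Sca1+ and 471000, 193000 and 170000 for Sca1-. Macrophage genes did not all run one way. Within each set Adgre1, Cd68, Csf1r, Cd5l, Mrc1 and Fcgr1 read higher in Sca1+ than in Sca1-, and Lyz2 read lower. Clec4f and Marco did not exceed 136 on any array. Adgre1, which encodes F4/80, read 16300 and 5550 for Sca1+ and 1810, 3570 and 3510 for Sca1-, and was highest on the first-set Sca1+ array. Lyz2, which encodes a lysozyme, read 39700 and 24400 for Sca1+ and 79800, 33600 and 29400 for Sca1-, and was highest on the first-set Sca1- array. Csf1r, which encodes the receptor for CSF1, read 35400 and 22000 for Sca1+ and 32700, 21500 and 18500 for Sca1-, and was highest on both first-set arrays. Their part in the complement signals was not tested.

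The later-set and first-set sorted arrays were compared with the fraction as a term, a contrast that the rule for choosing the genes does not name. The genes were still chosen with earlier results of these data known, so their adjusted p-values here may not be independent of that choice. C1qa, C1qc and C5ar1 were higher in the later set, by log2 differences of 2.48 ± 0.29 (SE, limma adjusted p = 0.00538), 1.32 ± 0.25 (adjusted p = 0.0193) and 2.53 ± 0.24 (adjusted p = 0.00344). For C1qa and C5ar1 all 3 later arrays lay above both first-set arrays, as for 26.5% of all genes. For C1qc they did too, with 7780 as the lowest later-set signal and 6300 as the highest first-set one. For C1qb they did as well, with 6060 and 5260 as the corresponding signals. Of the 7 genes, 3 passed higher and 0 lower, beside 11.8% of all genes higher and 7.46% lower. The same 3 were past 2-fold higher and 0 past 2-fold lower, beside 17.2% and 10.1%. No gene of the 7 had all later arrays below both first-set arrays, as 19.5% of all genes did. C1qb (0.50 ± 0.22, adjusted p = 0.157), Cfb (0.84 ± 0.74, adjusted p = 0.445), Cfp (-0.59 ± 0.37, adjusted p = 0.298) and C3ar1 (-0.66 ± 0.40, adjusted p = 0.276) did not pass. The median over the 7 genes was 0.84, beside 0.10 over all genes.

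C5ar1 was higher in the later set by 2.54 within Sca1+ and by at least 2.52 within Sca1-, where the first-set signal of 169 was not above the highest bacterial control and that control stands in its place. C1qa moved by 1.87 within Sca1+ and 2.95 within Sca1-, and C1qc by 0.91 and 1.63 in the same fractions. Cfb had -1.13 within Sca1+ and 2.32 within Sca1-, where the first-set array was at the floor. With the highest bacterial control of that array in place of the floor, the Sca1- value of Cfb was 0.91. Cfb passed without Sca1+ replicate 1 (limma adjusted p = 0.0254) or Sca1+ replicate 2 (adjusted p = 0.0246), at the same 2.32 against the floor, and had -1.13 (adjusted p = 0.0781) without Sca1- replicate 1. C3ar1 had -1.65 (adjusted p = 0.0439) without Sca1- replicate 1, and 0.08 without either Sca1+ array. The call of C1qc was lost without Sca1- replicate 1 (0.91, adjusted p = 0.0719), replicate 2 (1.22, adjusted p = 0.0542) or replicate 3 (1.31, adjusted p = 0.068), and with median scaling, the higher floor or no filter. The calls of C1qa and C5ar1 held when each sorted array was left out in turn, with adjusted p up to 0.0405 and 0.0401. The call of C1qa was lost without the filter on low signals (limma adjusted p = 0.0876). C1qb passed with quantile normalization (0.74, adjusted p = 0.0446) and with the mean of its probe sets (0.87, adjusted p = 0.0396).

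Probe sets of the same gene gave different set differences. With every probe set as its own feature, a fit added after seeing the data, 1419483_at of C3ar1 was higher in the later set by 3.14 ± 0.55 (limma adjusted p = 0.0139), while 1419482_at had -0.66 ± 0.40 (adjusted p = 0.267). For C1qb, 1417063_at was higher by 1.49 ± 0.22 (adjusted p = 0.00864), against 0.63 ± 0.25 (adjusted p = 0.115) for 1434366_x_at and 0.50 ± 0.22 (adjusted p = 0.155) for 1437726_x_at. In this fit 5 of the 10 probe sets passed higher and 0 lower, beside 13.3% and 6.87% of 13251 probe sets. The first-set arrays had the higher Actb 3' to 5' ratios, the lower fibroblast signals and, in Sca1- replicate 1, the highest granulocyte signal. The part of these in the set differences was not tested. Among the sorted arrays, set, RNA quality and stromal content cannot be told apart over 2 first-set arrays. The feeder and unsorted arrays, with labels like those of the first set, had Actb ratios of 1.03 and 1.01. Their summed fibroblast signals were 57300 and 53900, but they hold other cell preparations and did not enter this contrast.

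**Figure D3:**
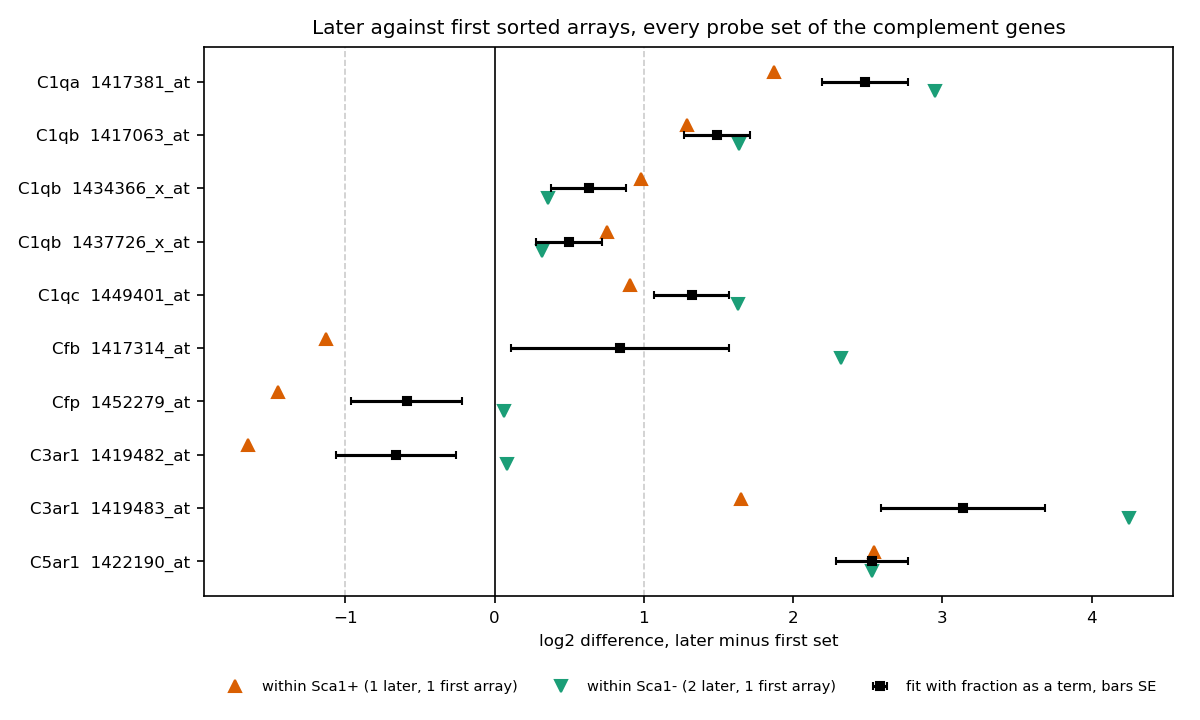
Log2 difference of later minus first set for each probe set, within Sca1+ (upward triangles), within Sca1- (downward triangles) and from the fit with fraction as a term (squares, bars SE), with dashed lines at a 2-fold difference. From the fit, the 2 probe sets of C3ar1 lay at 3.14 and -0.66, and the Sca1- points of Cfb and C5ar1 are taken against a first-set signal below the highest bacterial control of that array.

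The feeder layer was set against the unsorted progenitors with 1 array each from separately deposited tables, so no test was made. The complement genes differed little. The log2 difference of feeder minus unsorted was 0.18 for C3ar1, 0.06 for C5ar1, -0.03 for C1qb, -0.11 for C1qa, -0.17 for C1qc, -0.27 for Cfp and -0.67 for Cfb. None of the 7 reached a 2-fold difference, while 4.08% of 9751 genes were that much higher in feeder cells and 15.9% that much lower. The median over the 7 was -0.11, beside -0.13 over all genes. The signs of C1qa, C1qb, C1qc and Cfp turned with median scaling, to 0.25, 0.33, 0.19 and 0.09, where the median of all genes was 0.28. With quantile normalization C5ar1 turned to -0.14 and C3ar1 was at 0.00.

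Against the mean of the sorted fractions, C5ar1 was higher on both of these arrays and Cfp lower. C5ar1 stood 2.85 above the sorted mean in unsorted and 2.92 in feeder cells, C1qa 1.08 and 0.96, and C1qc 0.34 and 0.17. Cfp stood at -0.87 and -1.14 on the same arrays, Cfb at -0.14 and -0.81 and C3ar1 at 0.10 and 0.27. On its other probe set, 1419483_at, C3ar1 was at 0.76 and 1.02, past 2-fold in feeder cells. C1qb was at -1.0 and -1.02 on 1437726_x_at but at 1.94 and 1.95 on 1417063_at. At gene level C5ar1 and C1qa were higher past 2-fold in unsorted cells against the sorted mean, beside 19.4% of 9223 genes. Of the 7, 0 were lower past 2-fold, beside 7.78%, with C1qb just short of that fold. In feeder cells C5ar1 was higher past 2-fold at gene level, beside 12.7% of 8849 genes, and C1qb and Cfp were lower, beside 7.98%. The median over the 7 was 0.10 in unsorted and 0.17 in feeder cells, beside 0.25 and 0.07 over all genes. Both comparisons share the 5 sorted arrays. Leaving out each sorted array in turn, C5ar1 kept a difference of 2.22 or more in unsorted and 2.28 or more in feeder cells, and without Sca1- replicate 1 C1qa had 0.58 and 0.47. Without Sca1+ replicate 1 C1qa had 0.61 in unsorted cells, also short of 2-fold. In feeder cells Cfp had -0.77 without Sca1+ replicate 1. There C1qb had -0.84 without Sca1+ replicate 2, -0.98 without Sca1- replicate 2 and -0.76 with quantile normalization, none of them past 2-fold. C1qa in unsorted cells had 0.35 with median scaling, and C1qc had 1.17 with quantile normalization. With median scaling the unsorted difference of C1qc was -0.38 and that of C3ar1 -0.63. C1qb and Cfp were then past 2-fold lower in unsorted cells, at -1.72 and -1.59. The median of all genes moved to -0.47 with this scaling, against 0.25.

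Of 41 other complement genes listed, 29 had a probe set and 15 passed the filter on low signals in the sorted arrays. None of the 15 passed between Sca1+ and Sca1-, with a median difference of 0.00. Between the sets 2 of 15 passed higher and 1 lower in the later set, beside 11.8% and 7.46% of all genes, so the counts lay near the background. C2, whose product is cleaved by C1s, read 490 in feeder and 769 in unsorted cells, with 406 and 637 for Sca1+ and 62.6, 498 and 540 for Sca1-, and was higher in the later set by 2.00 ± 0.54 (limma adjusted p = 0.0488). Sca1- replicate 1 alone was low for C2, as it was for the neighbouring Cfb, and without it the set difference was 0.65 (adjusted p = 0.122). Without Sca1- replicate 3 it was 1.80 (limma adjusted p = 0.0523), and the call was also lost with quantile normalization, median scaling, the higher floor, no filter, the mean of probe sets or no intensity trend. C1ra, which encodes the protease C1r, read 310 in feeder and 277 in unsorted cells, with 8.4 and 289 for Sca1+ and 8, 90.6 and 58.6 for Sca1-, and was not tested between the sorted arrays.

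Among lectin pathway genes, Masp1, which encodes a mannose-binding lectin protease, read 390 in feeder and 454 in unsorted cells, with 10.2 and 437 for Sca1+ and 14.4, 133 and 228 for Sca1-. Masp1 passed the filter through the later-set arrays alone, since both first-set signals were under the floor, so its set difference of 2.01 ± 0.46 (limma adjusted p = 0.0322) follows in part from the filter. Its call was lost without Sca1+ replicate 1 (1.44, adjusted p = 0.124), Sca1+ replicate 2 (1.44, adjusted p = 0.121) or Sca1- replicate 1 (2.77, adjusted p = 0.0881), and with the higher floor, no filter or the mean of probe sets. Fcna, which encodes ficolin A, read 1070 in feeder and 1070 in unsorted cells, with 170 and 475 for Sca1+ and 202, 368 and 326 for Sca1-. Like C5ar1, it was highest on the feeder and unsorted arrays and lowest on the first-set sorted arrays, but its set difference of 1.08 ± 0.31 did not pass (limma adjusted p = 0.0559).

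Terminal pathway and regulator genes were mostly dim. Of 6 terminal genes measured, Hc, which encodes C5, did not exceed 138 on any array and C6 did not exceed 137, while C8a, C8b and C8g did not exceed 100. C9 reached 220 in unsorted cells. Serping1, which encodes the C1 inhibitor, read 263 in feeder and 415 in unsorted cells, with 61.2 and 173 for Sca1+ and 28.8, 137 and 131 for Sca1-. Clu, which encodes clusterin, an inhibitor of the terminal complex, read 1180 in feeder and 2140 in unsorted cells, with 172 and 1180 for Sca1+ and 628, 1100 and 837 for Sca1-. Both were lowest on a first-set array, and neither passed between the sets (limma adjusted p = 0.0583 and 0.0762). The membrane regulator gene Cr1l varied little, from 1140 to 1950, and Cd59a ranged from 234 to 723.

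Of the receptor genes of the integrin family, Itgb2 alone passed between the sets. Itgb2, which encodes the beta chain shared by complement receptors 3 and 4, read 6060 in feeder and 4680 in unsorted cells, with 7760 and 3080 for Sca1+ and 18000, 6370 and 6990 for Sca1-. It was lower in the later set by a log2 difference of -1.39 ± 0.21 (limma adjusted p = 0.00984), and its call held when each sorted array was left out in turn, with adjusted p up to 0.0478, but was lost without the filter on low signals (adjusted p = 0.0576). Its highest signal was on Sca1- replicate 1, the array with the highest granulocyte signal. Itgam, which encodes the alpha chain of complement receptor 3, ranged from 794 to 1770 and did not pass (-0.10 ± 0.24, limma adjusted p = 0.788). Itgax, which encodes the alpha chain of complement receptor 4, read 449 in feeder and 240 in unsorted cells, with 109 and 141 for Sca1+ and 133, 150 and 169 for Sca1-, and did not pass either (0.32 ± 0.34, limma adjusted p = 0.534).

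In feeder against unsorted cells, 0 of 22 other complement genes were higher past 2-fold, beside 4.08% of all genes, and 5 were lower, beside 15.9%. These ran from Masp2 (-1.05) to Cd46 (-1.80). In feeder cells none of the 5 exceeded 76. All 5 passed the filter through the unsorted array alone, so their lower feeder values follow in part from the filter. Their unsorted signals were 133 to 265, where the highest bacterial control was 170. Against the sorted mean, 9 of 19 were higher past 2-fold and 0 lower in unsorted cells, beside 19.4% and 7.78% of all genes, from C2 (1.08) to Serping1 (1.98). In feeder cells 7 of 18 were higher past 2-fold and 0 lower, beside 12.7% and 7.98% of all genes, from Vsig4 (1.08), which encodes a macrophage receptor for C3b, to Fcna (1.90). These counts fell to 5 and 3 without Sca1+ replicate 1. Hepatoblast and hepatocyte genes exceeded 100 for 7 of 8 measured in unsorted and 3 of 8 in feeder cells, with Alb at 288 and 102. On the sorted arrays 0 and 3 of 8 did so for Sca1+ and 4, 2 and 2 for Sca1-. Alb reached 317 there, on Sca1+ replicate 2. The highest bacterial control of the unsorted array, at 170, lay above that cut. The part of these genes in the differences was not tested.

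**Figure D4:**
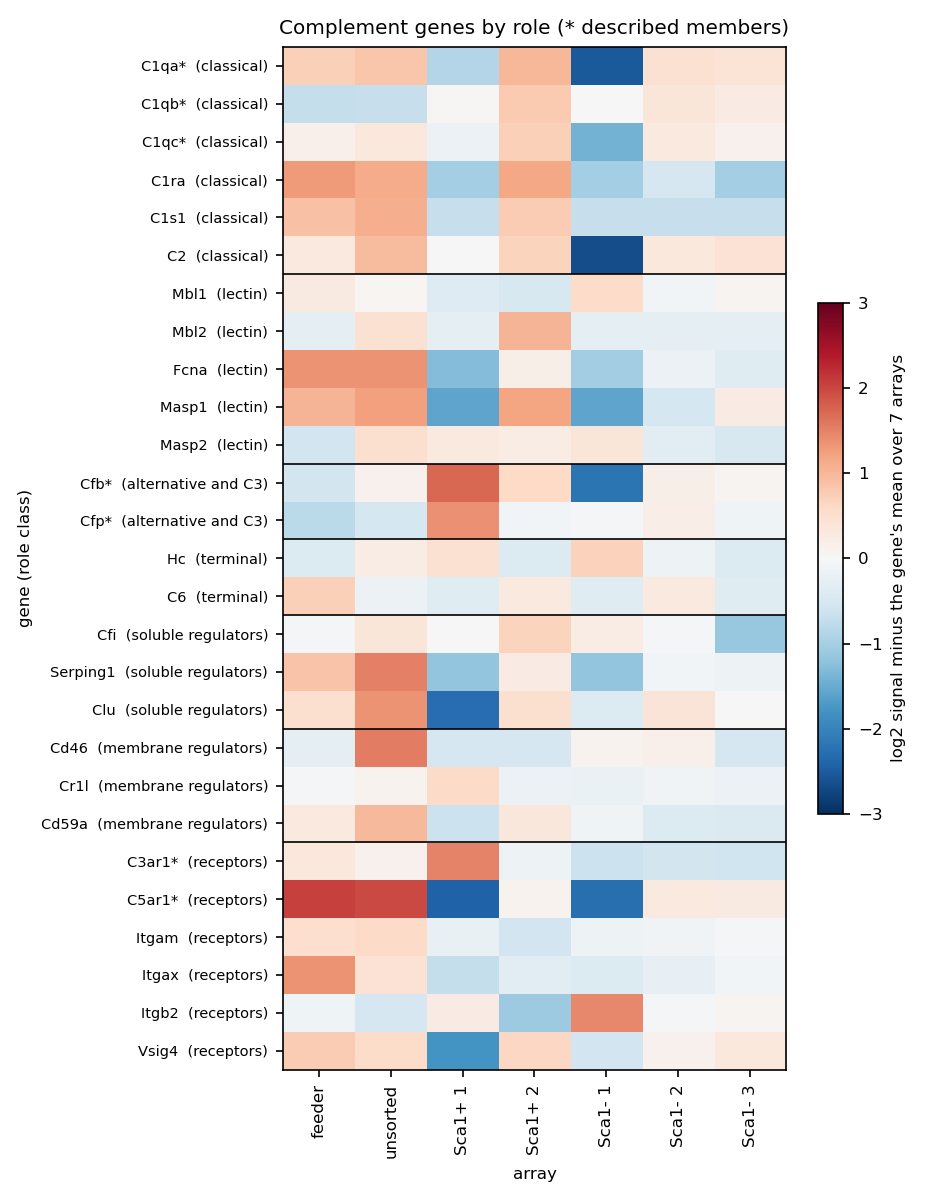
Log2 signal of 27 complement genes that exceeded 100 on 2 or more arrays, minus each gene's mean over the 7 arrays, in rows grouped by role and columns by array, with colours limited at 3 in either direction. C5ar1 was high on the feeder and unsorted arrays and low on the first-set sorted arrays, while Itgb2 was highest on Sca1- replicate 1.

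The genes with the nearest profiles were found by the root mean square difference of log2 signals, each gene centred on its mean over the 6 arrays of the larger table. Nearest to the mean of the C1q chains were Lxn (0.10), Egr1 (0.11), Ube3a (0.12), Gas5 (0.12) and Esf1 (0.12), where the median over all genes was 0.78. Nearest to Cfb were Rhoq (0.15), Ms4a6b (0.24) and Tmem68 (0.27), with a median of 1.25. Nearest to Cfp were Wdr61 (0.11), Ola1 (0.14) and Cd14 (0.14), with a median of 0.82. Nearest to C3ar1 were Zfyve21 (0.20), Rnf13 (0.21) and Prxl2b (0.21), with a median of 0.91. Nearest to C5ar1 were Krt8 (0.33), Cd99 (0.35) and Slc25a30 (0.37), with a median of 1.54. Among the chains themselves, C1qc lay 0.19 from the mean of the other 2, C1qa 0.90 and C1qb 0.96. Ranked by nearness to the other chains among 8589 genes, C1qc was at 25, C1qb at 4062 and C1qa at 6615. Only C1qc thus lay near the other chains. The C1q mean and these distances took C1qb from the probe set used at gene level, and its probe sets gave different patterns. The 6 arrays share 2 sets and 1 platform, so these distances describe the arrays and were not tested.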

How the data were processed

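RNA from 7 fetal liver samples was hybridised to single-colour arrays of 22690 probe sets. The authors deposited linear signal intensities whose 2% trimmed mean was 250 per array. GCOS is named for the 3 later-set arrays per the submitters' processing notes; for the other 4 no software is named in the sources read. The number of arrays limits the precision.

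Groups came from the sample titles. Signals were brought to a trimmed mean of 500 per array, floored at 64 and taken to log2. Of the probe sets, 64 were controls, 691 had several genes, 1555 had none and 20380 had 1; only those with 1 gene were used, and per gene the one of highest mean log2 signal over 6 arrays. The 8591 genes that exceeded 100 on 2 or more sorted arrays were fitted with limma 3.58.1 in R 4.3.3 (intensity trend, Benjamini-Hochberg at 0.05) by fraction alone, with 3 residual degrees of freedom, and by fraction and set, with 2. Comparisons with 1 array were described at 2-fold, over genes above 100 on at least 1 of the 2 arrays or at least 2 of the 6. As background, 27 probe sets of bacterial control transcripts were read, on the assumption that none were added. The fits were tested on simulated data. Genes named were the 8 members, the 2 brightest other complement genes per role and those called between the sets. Where no test was made, the highest and lowest of those past 2-fold were named. The nearest profiles were named too. Pecam1, Eng, Kdr, Alb, Itgax, C8a, C8b, C8g, C9 and the 9 macrophage and Kupffer cell genes were named after their values were seen. Alternatives changed scaling, floor, filter, probe set choice, trend, blocks and arrays. The members and lists were chosen with earlier results of these data known. Figures were drawn with matplotlib 3.10.9.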

Additional observations from a re-analysis of the deposited data

How the results depend on the processing

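Counts over all genes moved with the floor, the filter and the scaling. With a higher floor, 478 genes passed between the sets and 867 were past 2-fold between feeder and unsorted, against 1653 and 1946 in the main analysis; of the other complement genes 1 passed between the sets, 1 was past 2-fold between feeder and unsorted and 3 between feeder and sorted mean. With no filter 1 gene passed between the fractions and 31 between the sets, 0 of them other complement genes. With signal above 300, 676 genes were past 2-fold between feeder and unsorted (0 of the other complement genes) and 1295 between unsorted and sorted mean (5 of them), and 3 other complement genes between feeder and sorted mean. Of the other complement genes, 5 were past 2-fold between unsorted and sorted mean with quantile normalization, and 3 between feeder and unsorted with median scaling, against 9 and 5.

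A block for deposit set gave 85 genes between the fractions and a replicate block gave 80, all lower in Sca1+, with 0 of the other complement genes in either. The labels number only some samples, so the numbers were not taken as pairs, and set and replicate number cannot both enter the comparison of the sets. With every probe set as its own feature, 2666 passed between the sets.

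Leaving out each sorted array in turn gave 642 to 2939 genes between the sets and 1 to 5 other complement genes. The count between the sets was 2938 without Sca1+ replicate 1, 2939 without Sca1+ replicate 2, 642 without Sca1- replicate 1 and 811 without Sca1- replicate 3. Other complement genes past 2-fold numbered 5 to 10 between unsorted and sorted mean and 3 to 8 between feeder and sorted mean. The members' median between the fractions was 0.11 to 0.92; where 1 array was left in a group it was assumed to vary like the others.

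The share of calls that were higher moved with scaling. Between the sets it was 61.2%, 50.1% with quantile normalization and 42% with median scaling; between feeder and unsorted 20.5%, 46.1% and 55.8%; between unsorted and sorted mean 71.4%, 43.3% and 16.5%; between feeder and sorted mean 61.4%, 46.7% and 32.3%. The difference of C5ar1 between the sets was then 2.18 with quantile normalization and 2.34 with median scaling, and that of C1qa 2.37 and 2.29. Between unsorted and sorted mean, C1qb was at 0.04 with the mean of its probe sets, against -1.0 with the probe set used.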
